A study of Mus musculus with 4 samples.

Results

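The question addressed here is which mRNAs of unloaded skeletal muscle differ when the kinase PDK1 is missing from muscle. It was read from 2 of the 4 arrays of the series, as the log2 value of the array from sham-operated M-PDK1KO mice minus that of the array from sham-operated control mice. Each gene was taken from the probe sets that name exactly 1 gene, which gave 22180 genes, and where several probe sets named a gene the probe set with the highest mean was used. M-PDK1KO mice carry floxed Pdpk1 on both alleles and Cre recombinase under the promoter of myosin light chain 1f, which is active in skeletal muscle. Control mice are called wild type in the sample labels, as in the methods' paragraph on the arrays, whereas the breeding paragraph has floxed mice lacking Cre as controls. All mice were male on a C57/BL6 background, and plantaris muscle was taken 10 days after surgery. Sham surgery left the synergist muscles in place, whereas in the other 2 arrays, from M-PDK1KO and control mice after synergistic muscle ablation, the gastrocnemius and soleus had been removed. The labels give no age, and neither they nor the methods say whether the RNA of an array came from 1 mouse or was pooled. With 1 array a side the sham comparison has no replicate error and no test, so "higher" and "lower" below describe these 2 arrays alone.

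PDK1 is a kinase of the PI3K pathway, which carries growth signals from the plasma membrane. Insulin and insulin-like growth factors activate their receptors, the insulin receptor substrates recruit PI3K, and the lipid that PI3K makes brings PDK1 and Akt together. PDK1 phosphorylates the activation loop of Akt and of many related kinases of the AGC family, such as S6K, SGK and protein kinase C. In skeletal muscle this pathway is known for its control of glucose uptake, protein synthesis through mTOR, and protein breakdown through FoxO transcription factors.

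Pdpk1, the gene that encodes PDK1, was lower in M-PDK1KO mice after sham surgery. Its log2 value was 5.96 in M-PDK1KO and 6.81 in control mice, a difference of -0.85, or 1.80-fold lower. After ablation it was 6.23 in M-PDK1KO and 6.85 in control mice, a difference of -0.63. Both M-PDK1KO arrays thus lay below both control arrays. The sources used here do not give where the probes lie relative to the floxed exons. Whole plantaris also holds cells in which this Cre is not active, so fewer Pdpk1-expressing cells and less Pdpk1 mRNA per cell cannot be told apart.

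Most genes differed little between the 2 sham arrays. The median difference over all genes was -0.00 and the SD 0.236 on the log2 scale, against an SD of 0.231 for the same comparison after ablation. At least 2-fold apart were 23 genes that were higher (0.104%) and 13 that were lower (0.0586%) in M-PDK1KO mice, and at least 1.5-fold apart were 284 higher (1.28%) and 256 lower (1.15%). The spread depended on level. With the genes ranked by level in 5 groups of 4436, the SD was 0.204 in the lowest, 0.275 in the middle and 0.182 in the highest group. The median of all genes' values was 3.23, and 11326 genes were above it on at least 1 sham array. Markers of myofibers were high on both arrays, with median levels of 12.23 in M-PDK1KO and 12.22 in control mice for 12 genes such as Ckm and Ttn, and their differences lay between -0.19 and 0.06.

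**Figure D1:**
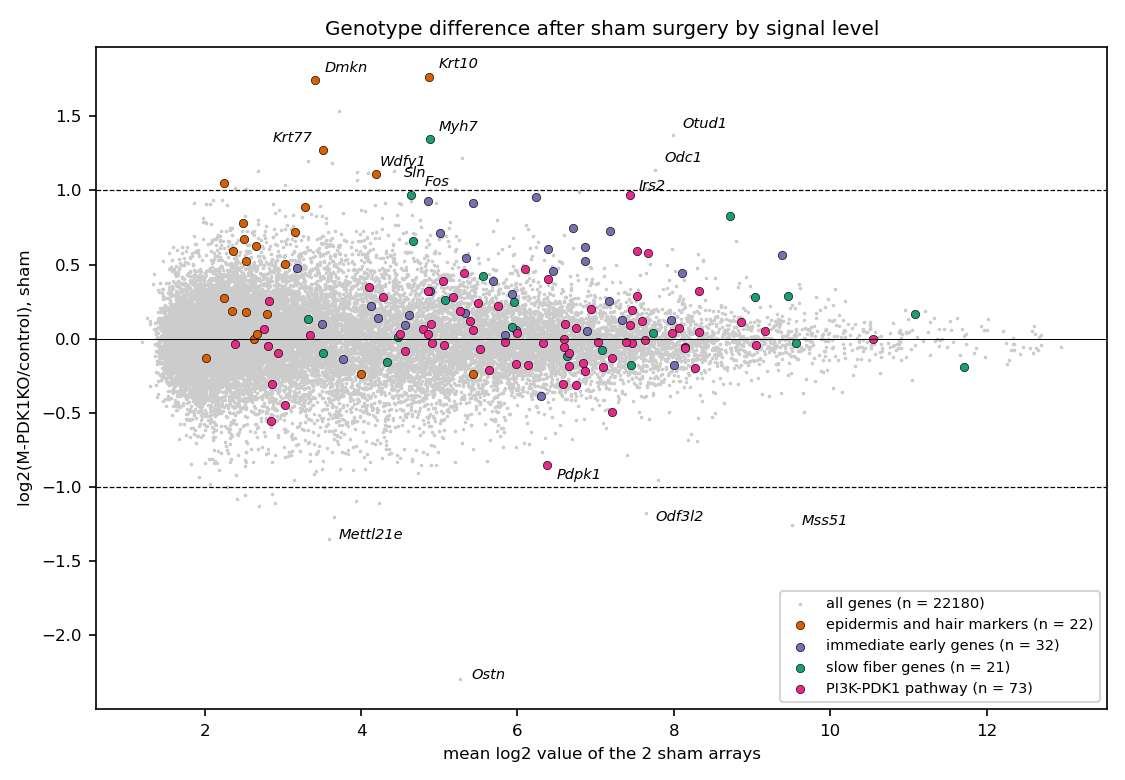
Difference between M-PDK1KO and control mice after sham surgery (y axis, log2) against the mean log2 value of both sham arrays (x axis), with 1 grey point per gene and 4 gene lists in colour. Dashed lines mark 2-fold. Ostn is the lowest point at -2.29, and Krt10 and Dmkn are the highest at 1.76 and 1.75.

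Beyond Pdpk1, the genes of the pathway around PDK1 moved little, except for those of the insulin receptor substrates, which were higher in M-PDK1KO mice. Of 82 genes written down for the pathway, 73 were measured. Their median difference was 0.02, with 37 above and 36 below 0. At least 1.5-fold higher were 2 of them (background 1.28%), and 1 was lower (background 1.15%), which was Pdpk1 itself. Irs2, an insulin receptor substrate whose gene FoxO factors are known to activate, had a log2 value of 7.92 in M-PDK1KO and 6.95 in control mice, a difference of 0.97. Irs1 was at 7.83 in M-PDK1KO and 7.24 in control mice, a difference of 0.59, and a further probe set of Irs1 with lower signal gave 0.46. Igf1r, the receptor of insulin-like growth factor 1, was at 6.33 in M-PDK1KO and 5.87 in control mice. The insulin receptor gene Insr differed by 0.09. The adaptor genes Grb2 and Grb10 were at -0.32 and -0.31, so that 6 of the 8 receptor and adaptor genes were above 0 and 2 below. Grb14, whose product binds and inhibits the insulin receptor, was not on the list and was among the lowest of all genes, at 3.03 in M-PDK1KO and 4.03 in control mice.

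The kinases downstream did not move together. PI3K subunits had a median of 0.05 over 12 genes and ran from -0.10 to 0.39 (Pik3cb), and 5 lipid phosphatases, which remove the lipid that PDK1 binds, ran from -0.19 to 0.02. The 16 measured AGC kinases, the substrates of PDK1, had a median of -0.03, and none was 1.5-fold apart. Akt2, the main Akt of insulin-responsive tissue, was at 8.48 in M-PDK1KO and 8.16 in control mice, and Akt1 differed by 0.20. Prkci and Sgk1 were higher by 0.32 and 0.29, whereas Prkcz, which encodes an atypical protein kinase C, was at 2.80 in M-PDK1KO and 3.25 in control mice. Genes of the mTOR complexes and their regulators had a median of 0.04 over 17 genes. Among them Deptor, whose product binds mTOR and inhibits it, was at 7.96 in M-PDK1KO and 7.38 in control mice. This difference of 0.58 lies just short of 1.5-fold, and a further probe set of Deptor gave 0.30. Among 14 effectors, the Akt substrates Tbc1d4 and Tbc1d1, which restrain the movement of glucose transporters, differed by 0.40 and -0.50, and the pseudokinase gene Trib2 by 0.45. Rps6, which encodes the S6K substrate S6, differed by -0.00. No value was obtained for 9 genes of the list, among them the S6K gene Rps6kb1.

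**Figure D2:**
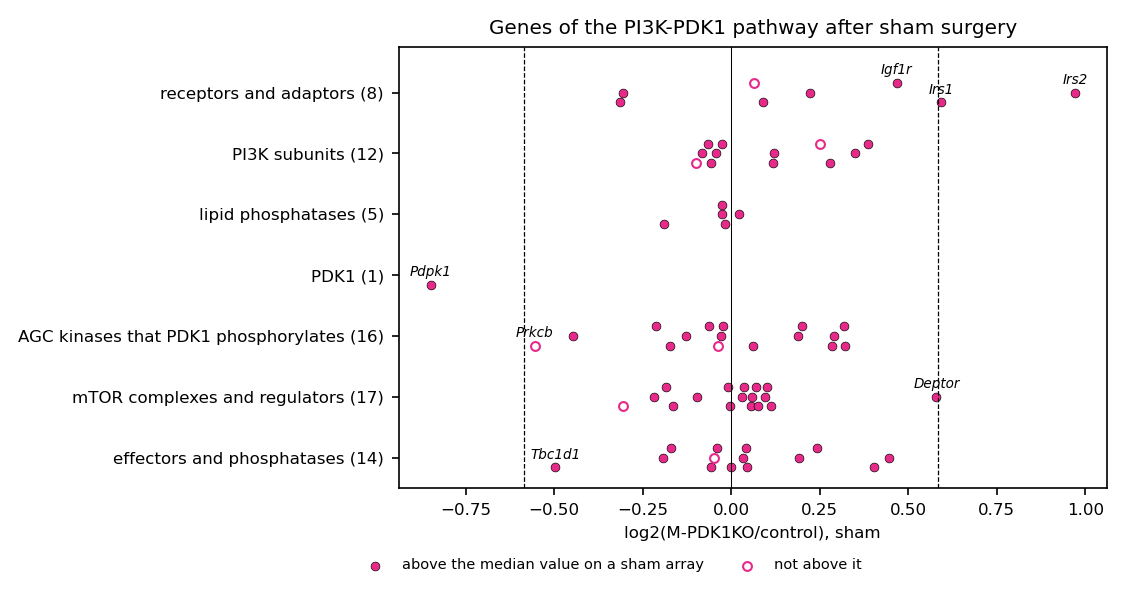
Difference after sham surgery (x axis, log2) of the 73 measured genes of the PI3K-PDK1 pathway, by role, with 1 point per gene. Filled points were above the median of all values on a sham array, and dashed lines mark 1.5-fold. Pdpk1 lies at -0.85 and Irs2 at 0.97, and most others lie close to 0.

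FoxO factors are held back by Akt, and their target genes drive muscle atrophy. Of 26 FoxO and atrophy genes, 25 were measured, and none was 1.5-fold apart, with a median of -0.03 and a range from -0.41 to 0.40. Fbxo32 and Trim63, which encode the muscle ubiquitin ligases atrogin-1 and MuRF1, differed by -0.13 and 0.10. The lowest was Foxo1, at 6.43 in M-PDK1KO and 6.83 in control mice, although its other probe set gave -0.11. The highest was the cell cycle inhibitor gene Cdkn1a, at 6.98 in M-PDK1KO and 6.58 in control mice. Klf15, a regulator of amino acid catabolism, differed by -0.30.

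The gene with the lowest difference of all was Ostn, which encodes osteocrin (musclin), a peptide secreted by muscle whose mRNA is known to rise with insulin. Its log2 value was 4.12 in M-PDK1KO and 6.41 in control mice, a difference of -2.29, or 4.91-fold lower. After ablation the values were 2.69 in M-PDK1KO and 3.73 in control mice, a difference of -1.05. Osteocrin binds the natriuretic peptide clearance receptor, and the gene of that receptor, Npr3, was at 5.18 in M-PDK1KO and 4.65 in control mice after sham surgery. The other natriuretic peptide receptor genes Npr1 and Npr2 differed by -0.26 and -0.15.

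The next lowest differences were those of Mettl21e, Mss51 and Odf3l2. Mettl21e, a lysine methyltransferase gene of skeletal muscle, was at 2.91 in M-PDK1KO and 4.26 in control mice. Mss51, a muscle gene whose product is linked to mitochondrial metabolism, was at 8.89 in M-PDK1KO and 10.15 in control mice, and Odf3l2, of the outer dense fiber family of sperm tails, at 7.06 in M-PDK1KO and 8.24 in control mice. Their differences were -1.35, -1.26 and -1.18. Mss51 and Odf3l2 were both well above the median on either array, whereas Mettl21e was below it in M-PDK1KO mice. Arrdc2, an arrestin domain gene, was at 7.32 in M-PDK1KO and 8.27 in control mice, and Kcng4, a modifier subunit of potassium channels, at 4.46 in M-PDK1KO and 5.32 in control mice. The remaining genes of the lowest 15 had values between 3.26 and 4.78 in control mice, and all but Fgf11, Rad51d, Zfp566 and Ippk were below the median of all values in M-PDK1KO mice. They were Fgf11 (-1.11), which encodes a fibroblast growth factor homologous factor that is not secreted, the innate immune receptor gene Tlr6 (-1.13), the recombination gene Rad51d (-1.09), Grb14, the interferon-induced Epsti1 (-0.96), the cilium gene Wdpcp (-0.89), the zinc finger gene Zfp566 (-0.89), the inositol phosphate kinase gene Ippk (-0.88) and the basement membrane gene Fras1 (-0.88).

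**Figure D3:**
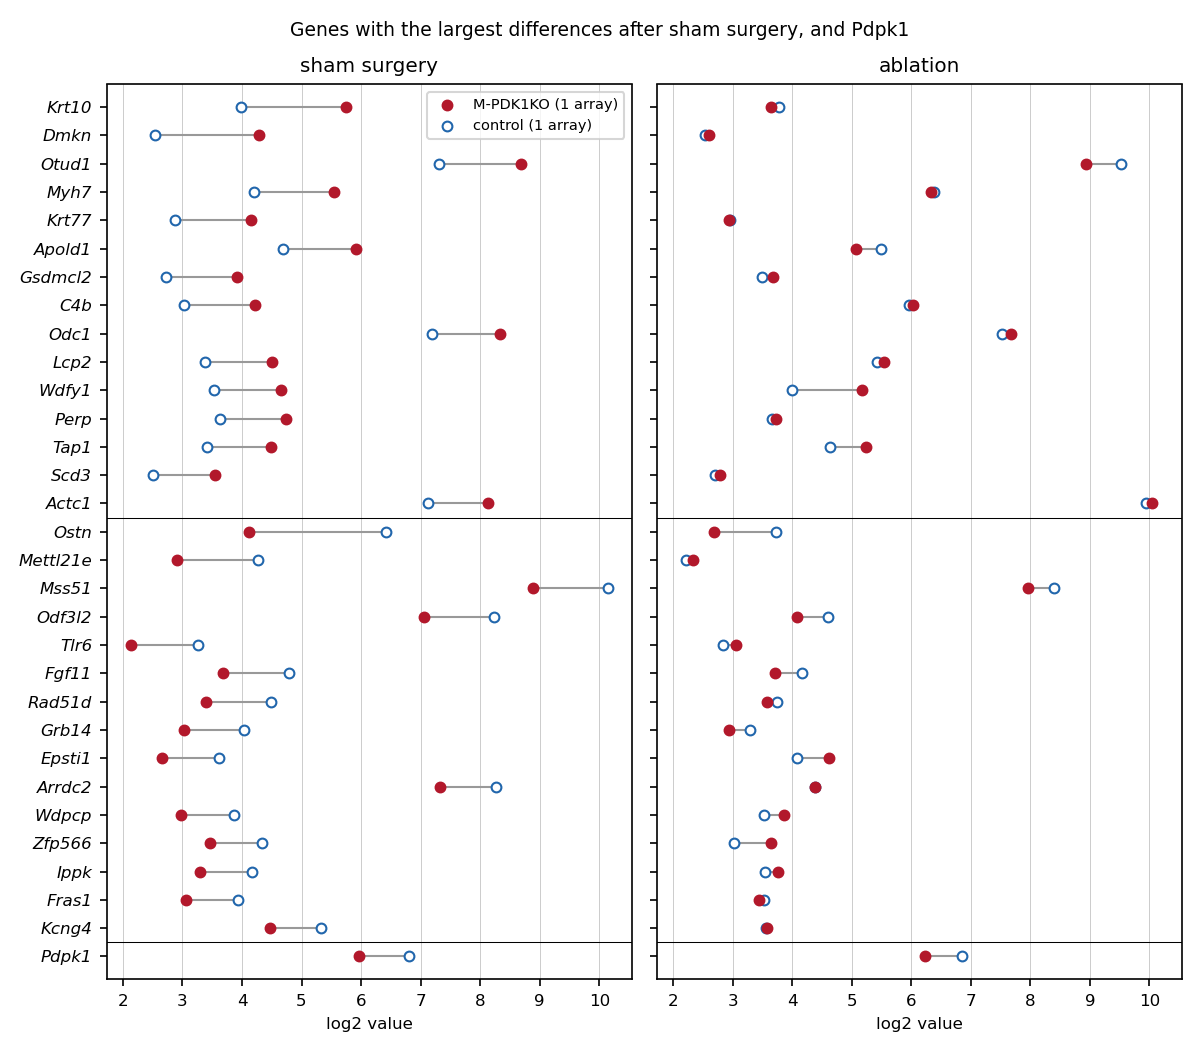
Log2 value (x axis) on each array of the 15 genes with the highest and the 15 with the lowest difference after sham surgery, and of Pdpk1, after sham surgery (left) and ablation (right). Filled points are M-PDK1KO and open points control mice, with 1 array each. Of the 30 genes, Ostn and Wdfy1 are 2-fold apart on both sides.

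The 15 genes with the highest differences included genes known from the epidermis, a slow myosin (Myh7) and an actin (Actc1), which are described with the fiber genes, and genes known from immune cells. Krt10, a keratin of the differentiated epidermis, was at 5.75 in M-PDK1KO and 3.99 in control mice, a difference of 1.76, or 3.40-fold. Dmkn (dermokine), secreted by keratinocytes, was at 4.28 in M-PDK1KO and 2.54 in control mice, and the keratin gene Krt77 at 4.15 in M-PDK1KO and 2.88 in control mice. Perp, a desmosome component induced by p53, was at 4.75 in M-PDK1KO and 3.63 in control mice, and Scd3, a stearoyl-CoA desaturase gene known from sebaceous glands, at 3.55 in M-PDK1KO and 2.51 in control mice. Among genes that were above the median on both arrays, Otud1, which encodes a deubiquitinase, was at 8.68 in M-PDK1KO and 7.31 in control mice. Odc1, the rate-limiting enzyme of polyamine synthesis, was at 8.33 in M-PDK1KO and 7.19 in control mice, a difference of 1.14. Apold1, an early response gene of endothelial cells, was at 5.91 in M-PDK1KO and 4.69 in control mice. Wdfy1, whose product binds endosomes, was at 4.65 in M-PDK1KO and 3.54 in control mice. Genes known from immunity were C4b, a complement component (4.22 in M-PDK1KO and 3.03 in control mice), Lcp2, an adaptor of T cell receptor signaling (4.51 in M-PDK1KO and 3.39 in control mice), and Tap1, a transporter of antigen peptides (4.49 in M-PDK1KO and 3.41 in control mice). Gsdmcl2, of the gasdermin C family, was at 3.92 in M-PDK1KO and 2.72 in control mice, a difference of 1.20. Dmkn, Krt77, Scd3, C4b and Gsdmcl2 were above the median of all values on the M-PDK1KO sham array alone, and so entered this ranking through their difference.

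Genes of slow fibers lay higher in M-PDK1KO mice as a list, and those of fast fibers, which make up most of the plantaris, did not. Of 21 slow fiber genes, 14 were above and 7 below 0, 4 were at least 1.5-fold higher (background 1.28%) and 0 lower (background 1.15%), and the median was 0.13, against -0.00 over all genes. Myh7, the slow myosin heavy chain, was at 5.55 in M-PDK1KO and 4.20 in control mice, a difference of 1.35. Sln (sarcolipin), an inhibitor of the calcium pump, was at 5.13 in M-PDK1KO and 4.16 in control mice. Ankrd2, a stretch-responsive ankyrin repeat gene, was at 9.13 in M-PDK1KO and 8.31 in control mice, and the slow troponin C gene Tnnc1 at 4.99 in M-PDK1KO and 4.33 in control mice. Other slow troponin and myosin genes did not follow, since Tnni1 was at 4.25 in M-PDK1KO and 4.40 in control mice and Myl2 at 4.48 in M-PDK1KO and 4.46 in control mice, while Tnnt1 and Myl3 differed by 0.26 and 0.24. The calcium pump gene Atp2a2 differed by 0.04. The mean over the list, 0.23, was higher than its median and rests on these few genes. After ablation, the same list had a median of -0.01, with Myh7 at 6.34 in M-PDK1KO and 6.38 in control mice.

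All 22 fast fiber genes lay between -0.32 and 0.16, with a median of -0.03 and none 1.5-fold apart. Myh4, Myh1 and Myh2, the fast myosin heavy chains, differed by 0.03, -0.06 and 0.05. Of 18 genes of developing or regenerating muscle, the median was 0.11. Actc1, the cardiac actin that is also made in young fibers, was at 8.14 in M-PDK1KO and 7.13 in control mice, and Myl4 and Ankrd1 differed by 0.54 and 0.52. Mymk (myomaker), needed for the fusion of myoblasts, was at 2.45 in M-PDK1KO and 3.28 in control mice. The fetal myosin genes Myh3 and Myh8 differed by 0.10 and -0.17.

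Immediate early genes, whose transcription follows growth factors, contraction or stress within minutes, were higher in M-PDK1KO mice as a list after sham surgery. Of 32 measured, 29 were above and 3 below 0, 8 were at least 1.5-fold higher (background 1.28%) and 0 lower (background 1.15%), and the median was 0.31. The AP-1 factor gene Fos was at 5.32 in M-PDK1KO and 4.40 in control mice, a difference of 0.93, and Fosl2 at 7.08 in M-PDK1KO and 6.34 in control mice. All 7 AP-1 genes were above 0, between 0.13 (Jun) and 0.93. The Krüppel-like factor genes Klf4, Klf2 and Klf6 were at 6.72, 5.90 and 7.55 in M-PDK1KO and at 5.76, 4.98 and 6.82 in control mice. Ier3, Sik1, a kinase gene induced by cAMP, and Ccn1, a matrix protein gene, differed by 0.71, 0.62 and 0.61. The nuclear receptor gene Nr4a1, which exercise and adrenaline are known to induce, was at 9.66 in M-PDK1KO and 9.10 in control mice, and Nr4a3 at 7.13 in M-PDK1KO and 6.61 in control mice. Egr1, in contrast, differed by 0.16 and Arc by 0.09. The 3 genes below 0 were Gadd45b (-0.39), Srf (-0.18) and Egr2 (-0.13). After ablation the same list had a median of -0.19, with 8 above and 24 below 0, and 6 were at least 1.5-fold lower and 0 higher, against 0.956% and 1.10% of all genes after ablation. All 7 AP-1 genes were then below 0, Fos being at 4.69 in M-PDK1KO and 6.33 in control mice and Atf3 at 7.57 in M-PDK1KO and 9.01 in control mice.

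Heat shock genes were spread to both sides of 0. Of 21 measured, 14 were above and 7 below 0 after sham surgery, with a median of 0.05, and 1 was at least 1.5-fold higher (background 1.28%). Hspa1a, which encodes an inducible HSP70, was at 8.28 in M-PDK1KO and 7.67 in control mice, and Hspa1b, a nearly identical copy with which probes may share signal, at 8.16 in M-PDK1KO and 7.66 in control mice. The co-chaperone gene Dnajb1 was at 5.28 in M-PDK1KO and 4.84 in control mice, and Hspa2, a testis HSP70, at 4.48 in M-PDK1KO and 4.86 in control mice. After ablation 4 of the list were at least 1.5-fold lower (background 0.956%), with Hspa1a at 6.93 in M-PDK1KO and 8.52 in control mice. The sources do not give how animals and tissue were handled before freezing, and the part of handling in these values was not tested.

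Shown are the sequences upstream of 3 of the genes at least 1.5-fold higher in M-PDK1KO mice, all 3 with a marked motif. They were searched for motifs known from such genes. They are the 250 bases before the RefSeq start site (GRCm38.p6), read on the strand of the gene. In the following, capitals mark TGACG or its reverse complement, the core of the cAMP response element, in Fos and Klf4, and GAANNTTC, a heat shock element, in Hspa1a.
Fos, chr12:85473640-85473889, plus strand: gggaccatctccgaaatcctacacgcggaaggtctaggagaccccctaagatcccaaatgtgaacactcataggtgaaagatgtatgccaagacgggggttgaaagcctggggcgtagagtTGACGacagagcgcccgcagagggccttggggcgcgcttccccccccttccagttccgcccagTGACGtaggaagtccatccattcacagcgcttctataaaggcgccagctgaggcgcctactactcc
Klf4, chr4:55532476-55532725, minus strand: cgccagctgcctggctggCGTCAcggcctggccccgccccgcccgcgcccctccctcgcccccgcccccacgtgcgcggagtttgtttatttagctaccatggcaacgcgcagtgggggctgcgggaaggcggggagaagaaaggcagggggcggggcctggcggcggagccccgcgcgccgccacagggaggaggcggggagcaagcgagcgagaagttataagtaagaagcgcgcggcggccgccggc
Hspa1a, chr17:34972157-34972406, minus strand: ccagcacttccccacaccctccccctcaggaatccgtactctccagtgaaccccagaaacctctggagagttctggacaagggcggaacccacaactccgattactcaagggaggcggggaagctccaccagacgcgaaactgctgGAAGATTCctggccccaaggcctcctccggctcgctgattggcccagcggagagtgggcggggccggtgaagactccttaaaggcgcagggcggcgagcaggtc
In Fos the core begins 129 and 66 bases upstream of the start site, in Klf4 232 bases, and the heat shock element of Hspa1a begins 104 bases upstream. On either strand, TGACG was present in 4 of the 7 immediate early genes that were at least 1.5-fold higher and had a window (Ccn1, Fos, Klf2 and Klf4) and in 13 of the other 18, against 19.79% of 27025 genes with a window. The full element TGACGTCA, which contains the core, was in 0 of the 7 and 3 of the 18 (1.77% of all genes), and the CArG box, the site of serum response factor, likewise in 0 and 3 (1.62%). GAANNTTC was in Hspa1a, the only heat shock gene past 1.5-fold, and in 6 of the other 17 with a window (7.73% of all genes). TTCNNGAA was in 0 and 4 of these heat shock genes (8.11%), and the FoxO element GTAAACA in 0 and 0 (3.54%). Among immediate early genes, GTAAACA was in 0 of the 7 and 2 of the 18. GAANNTTC and TTCNNGAA were each in 1 of the 7 and 1 of the 18. The core TGACG was absent from Hspa1a and present in 10 of the 17 other heat shock genes. Klf6 and Ier3, also at least 1.5-fold higher, held none of these motifs, and Fosl2 held GAANNTTC alone. These matches describe the letters in this window, and both groups of immediate early genes held the core. Bases further upstream were not searched, so a site there, such as a CArG box of Fos, would be missed.

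Genes of metabolism lay close to 0. Oxidative phosphorylation had a median of -0.04 over 42 genes, with 14 above and 28 below 0 and none 1.5-fold apart, and the citric acid cycle had -0.01 over 25. The lowest of the oxidative genes was Atp5g1, a subunit gene of ATP synthase, at 4.37 in M-PDK1KO and 4.82 in control mice. Genes of fatty acid uptake and oxidation had a median of -0.03 over 33, with Pnpla2, the triglyceride lipase ATGL, at 8.63 in M-PDK1KO and 8.11 in control mice and Ucp3, a mitochondrial uncoupling protein, at 7.31 in M-PDK1KO and 7.80 in control mice. Glycolysis and glycogen genes had a median of -0.03 over 28. Of 34 genes of lipid and cholesterol synthesis, Elovl6, a fatty acid elongase, was at 4.68 in M-PDK1KO and 3.87 in control mice, and Acaca, which encodes an acetyl-CoA carboxylase, at 5.11 in M-PDK1KO and 4.55 in control mice. These had differences of 0.81 and 0.56, whereas Nsdhl of cholesterol synthesis was at -0.51 and the list's median was -0.03. In amino acid catabolism 8 of 28 genes were above and 20 below 0, with a median of -0.07, and only Gpt, an alanine aminotransferase gene, passed 1.5-fold, at 4.24 in M-PDK1KO and 5.06 in control mice.

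Among genes of protein synthesis and breakdown, most proteasome and translation factor genes lay below 0, and none of these was 1.5-fold apart. Of 30 proteasome genes, 5 were above and 25 below 0, with a median of -0.11 and a range from -0.25 to 0.09. Of 27 translation factors, 6 were above and 21 below, with a median of -0.04. Over all genes, 10851 were above and 11262 below 0. Both lists have high signal, and in the highest of the 5 level groups 1920 genes were above and 2513 below 0, with a median of -0.02. With a lowess fit on level subtracted, the list medians were -0.08 for the proteasome and -0.03 for translation factors. The proteasome median was -0.07 after ablation. Of 35 cytosolic ribosomal protein genes the median was -0.03, and Rpl6 was the only gene past 1.5-fold, at 3.72 in M-PDK1KO and 4.41 in control mice. Ribosome biogenesis had a median of -0.01 over 29 genes and autophagy -0.06 over 27, in which Map1lc3a was at 6.71 in M-PDK1KO and 7.05 in control mice. Targets of ATF4, the transcription factor of the amino acid response, had a median of -0.06 over 23 genes with 6 above and 17 below 0. Chac1, which breaks down glutathione and is an ATF4 target, was at 6.36 in M-PDK1KO and 7.03 in control mice, and its difference was -0.68 after either surgery.

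Among factors that muscle secretes, the lower side held 3 of 28 genes past 1.5-fold (background 1.15%) and the higher side 0 (background 1.28%). Besides Ostn these were Il15, a cytokine of lymphocyte growth, at 3.69 in M-PDK1KO and 4.47 in control mice, and Bmp4, a bone morphogenetic protein, at 3.99 in M-PDK1KO and 4.73 in control mice. Mstn (myostatin), the inhibitor of muscle growth, was at 8.43 in M-PDK1KO and 8.86 in control mice, and at 5.71 in M-PDK1KO and 6.37 in control mice after ablation. Vegfa, the vascular growth factor, was at 8.73 in M-PDK1KO and 8.32 in control mice. The median of the list was 0.01, and the mean, which Ostn weighs on, was -0.14.

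Other regulatory lists gave few differences. Genes of β-adrenergic signaling and cAMP had a median of 0.06 over 26 genes, with 17 above and 9 below 0. Their highest members, Sik1, Nr4a1 and Nr4a3, are also immediate early genes, and Pde3b, a cAMP phosphodiesterase gene, was at 4.81 in M-PDK1KO and 4.29 in control mice. Clock genes ran from -0.48 to 0.64 with a median of -0.13 over 18. Of these 18, 8 were above and 10 below 0. Npas2, which activates clock targets, was at 4.44 in M-PDK1KO and 3.79 in control mice, and Arntl and Clock differed by 0.28 and 0.27. Ciart, Nr1d2 and Per3, which repress or are targets of these activators, were at -0.48, -0.39 and -0.32. Hlf of the same list was at 0.39 and Per1 at 0.13, so genes other than these activators went both ways. The sources give no hour of dissection, and its part in these values was not tested. Glucocorticoid targets had a median of -0.03 over 23 genes, calcium handling -0.04 over 30, genes of the neuromuscular junction -0.05 over 18, and interferon-stimulated genes 0.04 over 26. In calcium handling, Rcan1, a target and regulator of calcineurin, was at 8.53 in M-PDK1KO and 8.06 in control mice. Of 24 cell cycle genes Cdk1, the mitotic kinase, was at 3.77 in M-PDK1KO and 2.94 in control mice, whereas the mitotic genes Ccnb2 and Aurkb were at -0.47 and -0.43.

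**Figure D4:**
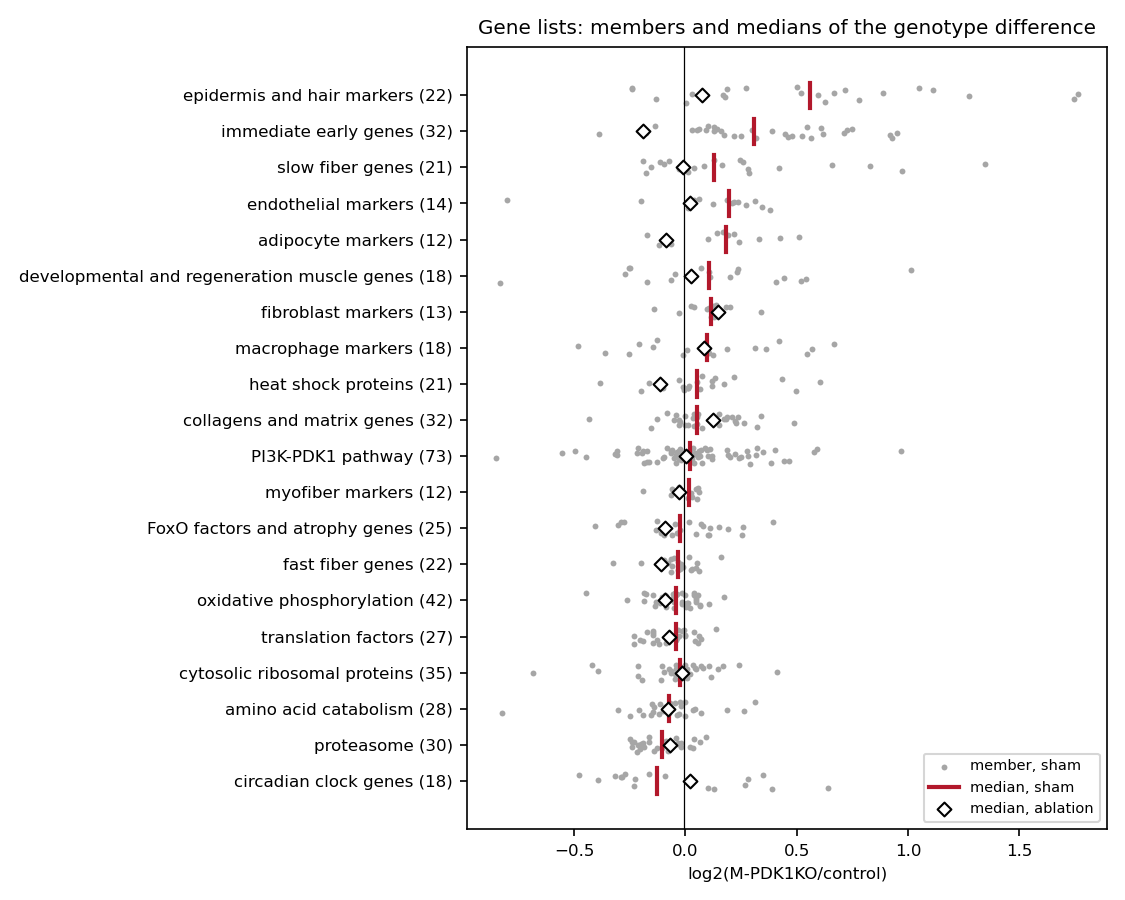
Difference between M-PDK1KO and control mice (x axis, log2) for 20 gene lists, with the number of measured genes in brackets. Grey points are members after sham surgery, red bars the list's median after sham surgery and diamonds its median after ablation. Epidermis and hair markers (0.56) and immediate early genes (0.31) have the highest medians after sham surgery, and the median of immediate early genes is -0.19 after ablation.

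Markers of the epidermis and hair follicle stood highest among the lists of other cell types in the M-PDK1KO sham muscle. Of 22 measured, 19 were above and 3 below 0, 11 were at least 1.5-fold higher (background 1.28%) and 0 lower (background 1.15%), and the median was 0.56. Their summed signal on the linear scale was 290.0 in M-PDK1KO and 191 in control mice after sham surgery, and 210.0 and 194 after ablation. The list therefore stood apart on the M-PDK1KO sham array, and the other 3 arrays had sums between 191 and 210.0. Only 9 members were above the median of all genes on a sham array, and Dmkn, Krt77, Krtdap and Krt79 were so on the M-PDK1KO array alone, through their difference. Besides the genes given above, Krtdap, a keratinocyte differentiation gene, was at 3.73 in M-PDK1KO and 2.84 in control mice, and Krt79 at 3.51 in M-PDK1KO and 2.79 in control mice. The basal keratin Krt14 was at 2.84 in M-PDK1KO and 2.17 in control mice, and the cornified envelope gene Lor at 2.97 in M-PDK1KO and 2.35 in control mice, both below the median on both arrays. The basal factor Trp63 was at 3.88 in M-PDK1KO and 4.12 in control mice, and Sfn at 5.32 in M-PDK1KO and 5.56 in control mice. Sbsn, Dmkn and Krtdap, which lie side by side on chromosome 7, formed the only run of 3 neighboring genes past 1.5-fold in the same direction, with Sbsn (suprabasin) at 4.19 in M-PDK1KO and 3.34 in control mice. Whether these RNAs came from skin taken along with the muscle was not tested.

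The other cell types differed less. Endothelial markers had 12 of 14 genes above 0 and a median of 0.20, with Kdr, a receptor of vascular growth factor, at 7.23 in M-PDK1KO and 6.85 in control mice, whereas Sox17 was at 3.87 in M-PDK1KO and 4.67 in control mice. Their summed signal was 1357 in M-PDK1KO and 1231 in control mice, and the part of these cells in the values of Apold1 and Klf2, which endothelial cells are known to express, was not tested. Macrophage markers had a median of 0.10 over 18, with Aif1 and Itgam at 0.67 and 0.57 but Fcgr3 and C1qc at -0.48 and -0.36, and sums of 598 in M-PDK1KO and 570.4 in control mice. Fibroblast markers had a median of 0.11 over 13 genes, smooth muscle and pericyte markers 0.09 over 11, adipocyte markers 0.18 over 12, satellite cell markers 0.14 over 10 and tendon markers 0.01 over 10. Those of lymphocytes, neutrophils, Schwann cells and brown fat had medians between -0.09 and 0.01. Collagen and matrix genes had a median of 0.05 over 32, with none 1.5-fold apart.

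Loci of microRNAs were examined as well, and those shown were chosen after their values were seen. Of 483 measured, 82 were above the median of all genes on a sham array, 8 were at least 1.5-fold higher (background 1.28%) and 17 lower (background 1.15%) in M-PDK1KO mice, and their median difference was -0.01. Mir193a and Mir365-2, neighbors on chromosome 11, were at 1.91 and 1.74 in M-PDK1KO and at 2.61 and 2.33 in control mice. Their paralogs differed by -0.62 (Mir365-1, at 2.75 in M-PDK1KO and 3.37 in control mice) and -0.16 (Mir193b). After ablation, the differences were -0.59 for Mir193a, -0.39 for Mir365-2, -0.78 for Mir365-1 and -0.09 for Mir193b. All but Mir365-1 were below the median on both sham arrays. The sources used here do not give which RNA of the locus the probes read. The mature sequences, as RefSeq gives them on GRCm38.p6, are shown because both Mir365 loci give the same microRNA and the miR-193 pair shares a seed (bases 2 to 8, in capitals), the stretch that pairs with target mRNAs.
mmu-miR-365-3p: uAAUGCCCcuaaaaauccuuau
mmu-miR-193a-3p: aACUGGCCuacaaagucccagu
mmu-miR-193b-3p: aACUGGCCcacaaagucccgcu
Larger differences were seen for Mir1933, at 4.49 in M-PDK1KO and 2.95 in control mice, and Mir1938, at 4.99 in M-PDK1KO and 3.85 in control mice, and on the lower side for Mir5103, at 1.98 in M-PDK1KO and 3.04 in control mice. After ablation these differed by 0.02, -0.31 and -0.24.

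The ablated arrays, which share no array with the sham pair, give the same genotype comparison to set beside the sham differences. Of the 36 genes that were 2-fold apart after sham surgery, 25 had a difference of the same sign after ablation, 16 of the 23 that were higher and 9 of the 13 that were lower. The share of all genes with the same sign after both surgeries was not computed, so these are counts without a background. Past 1.5-fold the same way after ablation were 2 of the higher genes, Wdfy1 and Tap1, and 1 of the lower, Ostn. Of the 540 genes 1.5-fold apart after sham surgery, 26 were so in the same and 15 in the opposite direction after ablation, when 1.10% of all genes were at least 1.5-fold higher and 0.956% lower. Wdfy1 was at 5.18 in M-PDK1KO and 4.00 in control mice after ablation, a difference of 1.18 beside 1.11 after sham surgery. Tap1 was at 5.24 in M-PDK1KO and 4.64 in control mice. Aldh1a1, a retinaldehyde dehydrogenase gene, was at 7.95 in M-PDK1KO and 8.64 in control mice after sham surgery and at 6.20 in M-PDK1KO and 7.12 in control mice after ablation, and Lrtm1, which encodes a leucine-rich membrane protein, at 5.93 in M-PDK1KO and 6.69 in control mice, and at 4.70 in M-PDK1KO and 5.48 in control mice. These 2 genes were chosen after their values were seen. The epidermal genes Krt10 and Dmkn, at 1.76 and 1.75 after sham surgery, were at -0.14 and 0.07 after ablation, and Irs2 and Otud1 at -0.44 and -0.58.

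**Figure D5:**
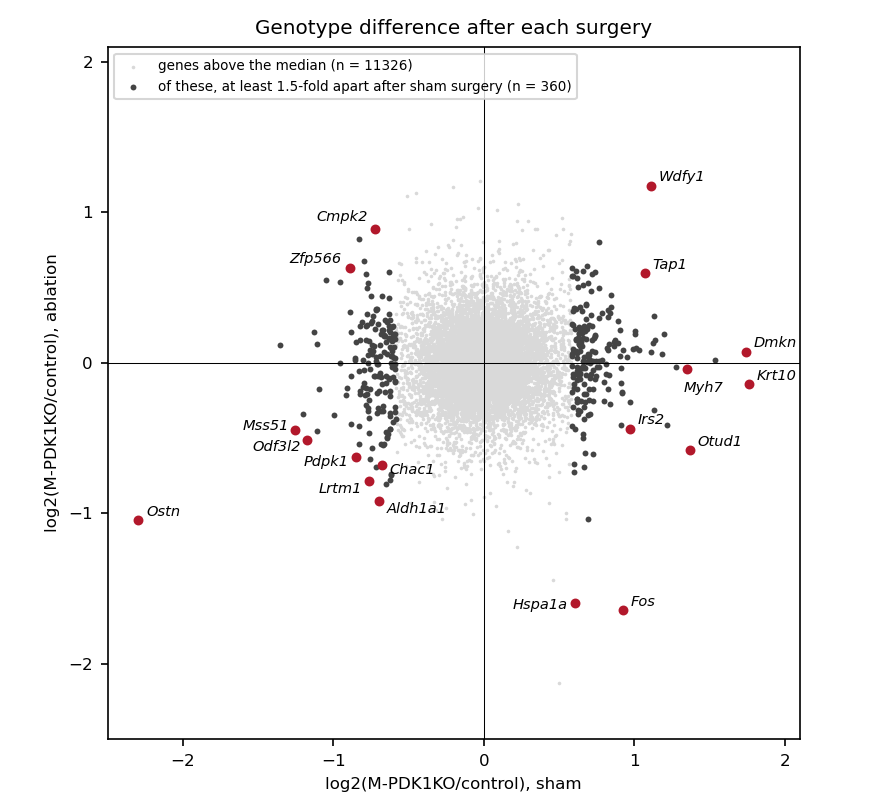
Difference between M-PDK1KO and control mice after sham surgery (x axis, log2) and after ablation (y axis, log2), for the 11326 genes above the median on a sham array. Dark points are the genes at least 1.5-fold apart after sham surgery, and red points are named genes. Ostn and Wdfy1 lie far from 0 on both axes, and Fos and Hspa1a lie above 0 after sham surgery and below 0 after ablation.

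The only test of genotype that these arrays allow takes both surgeries together, with 2 M-PDK1KO against 2 control arrays and 1 residual degree of freedom, and it does not test the sham difference itself. Of 22180 genes, limma called 0 (0%) at an adjusted p under 0.05. An unadjusted p under 0.05 was reached by 1208 (5.45%), a share near that threshold itself. The lowest adjusted p was 0.87. Wdfy1 had a mean difference of 1.15 (limma, adjusted p = 0.87) and Ostn of -1.67 (limma, adjusted p = 0.87). Pdpk1, the targeted gene, had a mean difference of -0.74 (limma, adjusted p = 0.87), and did not pass either.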

How the data were processed

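Plantaris RNA of the 4 conditions was hybridized, 1 array a condition, to Mouse Gene 2.0 ST arrays of Affymetrix. The log2 values, 1 per probe set and array, were used as deposited by the authors. The study's methods name Transcriptome Viewer, and the sources used here do not give the background correction, summary and normalization. The range of the values (0.70 to 13.21) was the basis for taking them as log2, and the medians of the sham arrays were 2.68 in M-PDK1KO and 2.67 in control mice. The number of arrays limits the precision.

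Of 41345 probe sets, 23521 named exactly 1 gene, 1820 several and 16004 none in the annotation used here. For 1082 genes with more than 1 probe set, that of highest mean was taken. Gene lists (44, with 900 of 982 genes measured) are described by counts and medians beside those of all genes. The members and lists were chosen with earlier results of these data known. Genes named are Pdpk1, the 15 highest and 15 lowest differences among genes above the median of all values (3.23) on a sham array, up to 4 leading genes of each list, and genes 2-fold apart after both surgeries. That ranking left out gene models without a name, small RNAs, chemosensory receptors and segments of immunoglobulin or T cell receptor genes. List members named for comparison beyond these were chosen after their values were seen. Genotype and surgery were the terms of a linear model on the log2 values (limma 3.58.1, R 4.3.3), with Benjamini-Hochberg adjustment. The model was also run on simulated data, with normal noise whose SD depended on level alone. That run does not give the power of the test in the deposited arrays. Python 3.11.15 with pandas 2.3.3, numpy 2.4.6, statsmodels 0.14.6 and matplotlib 3.10.9 made the tables and plots. Promoters and microRNAs are RefSeq's (GRCm38.p6). Alternatives counted every probe set, averaged the probe sets of a gene or took the highest over the sham arrays, kept genes above the median only, used quantile normalization, centring or a lowess fit on level, summarised lists otherwise, and ran limma with a trend or without surgery.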

Additional observations from a re-analysis of the deposited data

Results flagged for a closer look

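For 15 genes, 11 of which were above the median on a sham array and could be named, the difference between M-PDK1KO and control mice was at least 1.5-fold after either surgery and of opposite sign, so that the sham pair ran one way and the ablated pair the other. These differences were not tested, since each condition has 1 array. The difference after sham surgery minus that after ablation was 2.57 for Fos and 2.20 for Hspa1a, an immediate early and a heat shock gene. It was 1.36 for Rgs7bp, which encodes a partner of G protein regulators, 1.33 for Ppcs, of coenzyme A synthesis, 1.27 for the synapsin gene Syn2 and 1.27 for the zinc finger gene Zfp788. On the other side it was -1.61 for Cmpk2, an interferon-induced kinase gene, -1.52 for Zfp566, -1.48 for Cables2, -1.37 for Ahcy, which hydrolyses S-adenosylhomocysteine, and -1.23 for Cdh11, a cadherin of fibroblasts. Cmpk2 was at 3.57 in M-PDK1KO and 4.29 in control mice after sham surgery, and at 4.95 in M-PDK1KO and 4.05 in control mice after ablation.

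Among 16004 probe sets that name no gene in the annotation used here, 220 were at least 2-fold higher and 222 at least 2-fold lower in M-PDK1KO mice after sham surgery. The SD of their difference was 0.398, against 0.236 for the genes.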

How the results depend on the processing

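The 2-fold and 1.5-fold counts depended on which probe sets were counted. Over all probe sets, 244 were at least 2-fold higher and 238 lower in M-PDK1KO mice after sham surgery, and 1192 were at least 1.5-fold higher and 1147 lower. Among the 11326 genes above the median on a sham array, 169 were at least 1.5-fold lower, against 256 of all 22180 genes. These counts come from sets of unlike size, since all probe sets number 41345, and a lower count there is not a lower share. Under the other alternatives, the 2-fold counts ran from 18 to 23 higher and from 10 to 16 lower. With the arrays centred on their median, 242 genes were at least 1.5-fold higher and 296 lower, where the main values gave 284 and 256. Of the alternatives to list medians, 168 moved them by less than 0.1 and 8 by more, and of those to single genes, 541 and 8. With members above the median only, epidermis and hair markers had 0.89 in place of 0.56, a subset that 4 genes enter through their difference, neutrophil markers 0.16 in place of 0.01, lymphocyte markers 0.12 in place of -0.09, brown adipose markers -0.16 in place of 0.01 and natriuretic peptides and receptors -0.20 in place of 0.01. With means of members, natriuretic peptides and receptors had -0.24, secreted factors -0.14 in place of 0.01 and slow fiber genes 0.23 in place of 0.13. The genes that moved were Deptor (0.44), Foxo1 (-0.26), Cox7b, Lpl, Sardh, Rpl3, Npr1 and Dio2, each with the mean of its probe sets. Limma called 0 genes under each of its 4 alternatives, with 169 to 1285 genes at an unadjusted p under 0.05. These were 0.762% to 5.8% of the genes tested, which numbered 12018 with genes above the median only.

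Each condition has 1 array, which leaves no replicate to omit. No paired analysis was possible because the labels give no replicate numbers. The 2 sham arrays hold no estimate of the spread between mice, and differences of single animals, of dissection and of array cannot be told apart from genotype. Levels near the median of all values carry less signal over background than those of the muscle genes, and no background value was used here.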

Other observations

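Of the 540 genes 1.5-fold apart after sham surgery, 51 lay near another such gene in the genome. They formed 25 runs of genes apart in the same direction and within 3 measured genes of each other. How many such runs arise by chance was not computed. The only run of 3 was that of Sbsn, Dmkn and Krtdap. Runs of 2 genes on the higher side included Krt77 and Krt79 on chromosome 15, Lce1m and Flg2 of the epidermal differentiation complex on chromosome 3, and Perp and Tnfaip3 on chromosome 10. Slfn2 and Slfn3, of the Schlafen family of growth regulators in T cells, differed by 0.62 and 0.72. On the lower side, Chac1 lay beside Dll4, a Notch ligand gene of endothelial cells. Members of a gene family can share probe sequence, and the part of this in the runs was not tested.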
